A study of Ovis aries with 32 samples.

Results

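PTX3 codes for pentraxin 3, the long pentraxin. It is 1 of the 21271 genes of the deposited table and was found by its gene symbol, which 1 transcript carries, PTX3-201 (ENSOART00020001372, gene ENSOARG00020000946). The gene was chosen because its level was seen to differ between preadipocytes and differentiated adipocytes in these libraries, so its levels, ranks and fold changes with differentiation are given as a description and without a test. Sex, growth restriction and the relations within a stage were not used to choose it, and these were tested.

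Pentraxins are secreted pattern recognition proteins that assemble into multimers and bind microbes, dying cells and complement components. The short pentraxins, C-reactive protein and serum amyloid P, are made mainly by the liver, whereas PTX3 is made locally by fibroblasts, endothelial cells, myeloid cells and adipose tissue cells after signals such as interleukin 1, tumor necrosis factor and Toll-like receptor ligands. PTX3 also joins the extracellular matrix, where it takes part in crosslinking hyaluronan together with the protein TSG-6 and the heavy chains of inter-alpha-inhibitor, and it binds and inhibits fibroblast growth factor 2.

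RNA was sequenced from perirenal preadipocytes of near-term singleton sheep fetuses and from cells differentiated from such preadipocytes to mature adipocytes in culture. Preadipocytes came from control males (MC), control females (FC), growth-restricted males (MFGR) and growth-restricted females (FFGR), and the differentiated groups are named MCD, FCD, MFGRD and FFGRD. Growth restriction came from keeping the pregnant ewes in a hot environment in early and mid gestation, and the control ewes stayed at a moderate temperature and were fed to match. The 8 groups hold 4 libraries each, 32 in all, and the labels do not say which libraries came from the same fetus.

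The values are normalized reads, that is, reads assigned to a transcript and scaled by the authors to make libraries comparable. They sum to between 9.52 and 21.2 M (mega) in a library, and the lowest value above 0 lay between 0.647 and 1.76, so a value near 1 stands for about 1 read. In 9 libraries (FC replicate 2, MFGR replicate 1, FFGR replicates 2 and 3, MCD replicates 2 and 4, FCD replicate 2, MFGRD replicate 1 and FFGRD replicate 3) transcripts that span more of the genome had lower values than in the others. The slope of log2 value on log2 span was -0.12 or lower in these 9 and -0.038 or higher in the other libraries. This property is called the span slope here. The change of PTX3 with differentiation, its group differences that changed sign and the counts of partner genes are also given without these libraries. Changes of single other genes, correlations and rankings are not given without these 9.

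PTX3 was a gene of middling and very uneven level in preadipocytes. In MC its level was 268.9, 35.1, 160.2 and 396.4 normalized reads in replicates 1 to 4. In FC it was 139.7, 248.2, 284.4 and 32.6 normalized reads. Replicate 2 of MC and replicate 4 of FC lay well below the rest of their groups. The 4 MFGR libraries had 398.9, 122.6, 118.6 and 106.6 normalized reads, of which 3 lay close together and replicate 1 stood above them. The FFGR libraries had 926.2, 4.21, 163.7 and 121.1 normalized reads. They included both the highest and the lowest PTX3 level of the 16 preadipocyte libraries, a ratio of 220. The 4.21 of FFGR replicate 2 was near the detection limit, since the lowest value above 0 in that library was 1.38. The ranges of the 4 preadipocyte groups overlapped one another.

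After differentiation PTX3 was among the most abundant transcripts. The MCD libraries had 47822, 41523, 27295 and 47745 normalized reads. The FCD libraries had 19278, 10587, 32595 and 10853 normalized reads. FCD therefore held the 3 lowest PTX3 levels of the 16 differentiated libraries, although its replicate 3 reached the range of the other groups. In MFGRD the levels were 32032, 50475, 79549 and 31275 normalized reads, and replicate 3 was the highest of all 32 libraries. In FFGRD they were 21177, 39239, 40511 and 31536 normalized reads. The ranges of the 4 differentiated groups overlapped one another, and the lowest differentiated library was 11.4 times the highest preadipocyte library.

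**Figure D1:**
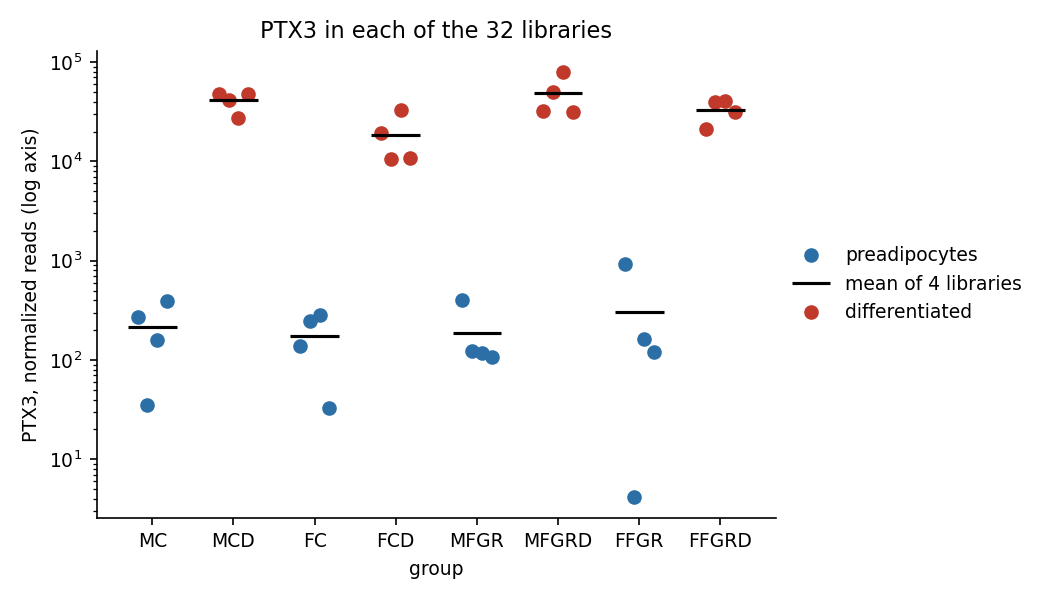
PTX3 in normalized reads (vertical log axis) in each library of the 8 groups (horizontal axis), preadipocytes in blue and differentiated cells in red, with points in replicate order and a black line at the mean of 4 libraries. The range is 4.21 to 926.2 in preadipocytes and 10587 to 79549 in differentiated cells, with no overlap between the stages.

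By mean ± SD (n = 4 each), the groups from high to low were MFGRD with 48333 ± 22625 normalized reads, MCD with 41096 ± 9663, FFGRD with 33116 ± 8892 and FCD with 18328 ± 10332. Below them came FFGR with 304 ± 420, MC with 215 ± 154, MFGR with 187 ± 142 and FC with 176 ± 114. Neighbours in this order differed by less than the larger of their SDs, except FFGRD and FCD, which differed by 14788, and the step between the stages. On the log2 scale FFGR came last of the 8 groups, and its mean on the linear scale rested on replicate 1. The relative spread was wider in preadipocytes. The coefficient of variation was 64.6% to 138% in the preadipocyte groups and 23.5% to 56.4% in the differentiated groups.

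Over the 4 kinds of fetus the mean change of PTX3 with differentiation was 7.85 on the log2(value + 1) scale (SE 0.48), a 230-fold difference. The log2 change was 7.99 in control males, 6.92 in control females, 8.14 in growth-restricted males and 8.34 in growth-restricted females, each with an SE of 0.95. These correspond to 254-fold, 121-fold, 282-fold and 323-fold. The last of these rested on FFGR replicate 2. Without that library the change in growth-restricted females was 6.92, or 121-fold. Without the 9 libraries of low span slope the mean change was 7.62 (196-fold), and it lay between 6.46 and 8.74 in the 4 kinds of fetus. Since these are bulk cultures, more cells with PTX3 transcript and more transcript per cell cannot be told apart.

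This rise was the fifth largest of the 12737 genes tested. Of these genes 1575 (12.4%) were called higher and 1891 (14.8%) lower after differentiation, at an adjusted p below 0.05 and a fold change above 1.5 with limma. PTX3 was chosen on this contrast, so nothing is read from its place. The median change over all genes tested was 0.035 on the log2 scale. PTX3 was 10th in MC, 6th in FC, 4th in MFGR and 4th in FFGR. The genes above it were FABP4, a fatty acid binding protein of adipocytes (9.55 on the log2 scale), ZBTB16, a zinc finger transcription factor (8.93), ITIH5 (8.46) and PAPPA2, a protease that cleaves insulin-like growth factor binding proteins (7.94). ITIH5 belongs to the family of the inter-alpha-inhibitor heavy chains. It had a median of 1.24 normalized reads in preadipocytes and 1181 in differentiated libraries. Just below PTX3 came the unnamed gene ENSOARG00020011920 (7.46) and KLB, which codes for beta-klotho (7.37). PTX3 was already at a median of 150 normalized reads in preadipocytes, where the medians of the other 6 genes were 0 to 13.1.

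The rank of the PTX3 transcript among all transcripts of a library, by normalized reads and not corrected for length, rose accordingly. In preadipocytes it lay between place 2444 and place 15548 of 35219, with a median of 8509. In differentiated libraries it lay between place 6, in MFGRD replicate 3, and place 137, in FCD replicate 4, with a median of 31.5. It was among the first 100 in 14 of the 16 differentiated libraries, and the other 2 were FCD replicates 2 and 4. PTX3 held 0.0824% to 0.696% of all normalized reads of a differentiated library, with a median of 0.268%. In preadipocytes the highest share was 0.0071%.

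**Figure D2:**
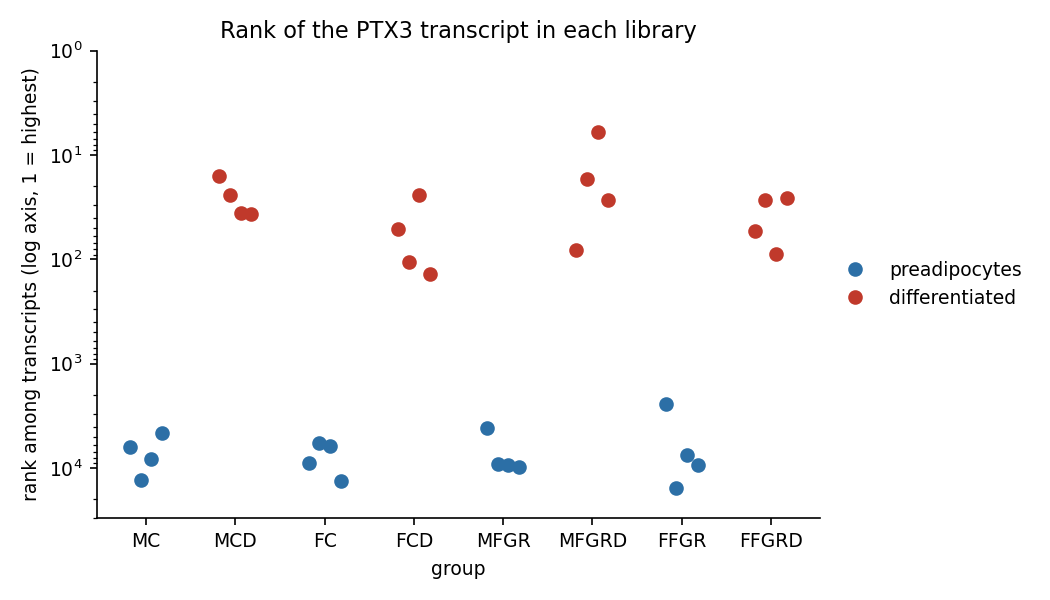
Rank of the PTX3 transcript among the transcripts of each library (vertical log axis, 1 is the most abundant) in the 8 groups (horizontal axis), with points in replicate order. Preadipocyte libraries (blue) lie between 2444 and 15548, and differentiated libraries (red) between 6 and 137.

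Growth restriction was compared within each stage to see whether it altered PTX3. No difference was detected. In preadipocytes, growth-restricted minus control was -0.22 on the log2 scale (SE 0.67, limma adjusted p = 0.913), a ratio of 0.858 with a 95% confidence interval of 0.330 to 2.23. In differentiated cells it was 0.56 (SE 0.67, limma adjusted p = 1.00), a ratio of 1.48 with an interval of 0.568 to 3.85. These SEs pool both stages, and limma on 1 stage alone gave an SE of 0.88 in preadipocytes (unadjusted p = 0.805) and 0.32 in differentiated cells (unadjusted p = 0.0949), with adjusted p-values of 0.927 and 1.00. The pooled intervals leave room for a change of more than 2-fold in either direction in preadipocytes and for an increase of that size in differentiated cells. The preadipocyte value turned on the FFGR group. It was 0.49 without FFGR replicate 2, -0.76 without FFGR replicate 1 and 0.58 without the 9 libraries of low span slope. Of the 12737 genes tested, 0 (0%) were called for growth restriction by limma in either stage, and 344 in preadipocytes and 136 in differentiated cells had an unadjusted p below 0.05.

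Within each sex no growth restriction comparison of PTX3 passed the exact permutation test. MFGR exceeded MC by 0.01 on the log2 scale (two-sided exact permutation test, p = 0.971, adjusted over 8 pairs 0.971), and FFGR was lower than FC by 0.45 (exact p = 0.8, adjusted 0.947). In differentiated cells MFGRD exceeded MCD by 0.16 (exact p = 0.686, adjusted 0.947). FFGRD exceeded FCD by 0.97, or 1.96-fold (exact p = 0.0857, adjusted 0.343), and all 4 FFGRD libraries lay above 3 of the 4 FCD libraries. The smallest p that 4 against 4 libraries can give is 0.0286. A single pair could therefore not reach an adjusted p below 0.05 over the 8 pairs.

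Sex was compared in the same way. Male minus female was 0.45 on the log2 scale in preadipocytes (SE 0.67, limma adjusted p = 0.853), a ratio of 1.37 with an interval of 0.525 to 3.56. It was 0.89 in differentiated cells (SE 0.67, limma adjusted p = 1.00), a ratio of 1.85 with an interval of 0.710 to 4.81. In differentiated cells the male group had the higher mean among both control and growth-restricted fetuses. MCD exceeded FCD by 1.29, or 2.45-fold (exact permutation p = 0.0571, adjusted 0.343), and MFGRD exceeded FFGRD by 0.48 (exact permutation p = 0.286, adjusted 0.762). The spread pooled over both stages was wider than that of the differentiated libraries, whose SD of log2 values was 0.38 to 0.77 in a group, against 0.89 to 3.11 in preadipocytes. When limma was fitted on the 16 differentiated libraries alone, the SE fell to 0.32 and the unadjusted p to 0.0134, and the adjusted p was again 1.00. For sex 0 of 12737 genes (0%) were called by limma, and 550 genes in preadipocytes and 159 in differentiated cells had an unadjusted p below 0.05. In preadipocytes MC exceeded FC by 0.22 (exact permutation p = 0.714, adjusted 0.947) and MFGR exceeded FFGR by 0.68 (exact permutation p = 0.83, adjusted 0.947). The sign of the preadipocyte sex difference turned without FFGR replicate 2 (-0.26) and without the libraries of low span slope (-0.50).

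**Figure D3:**
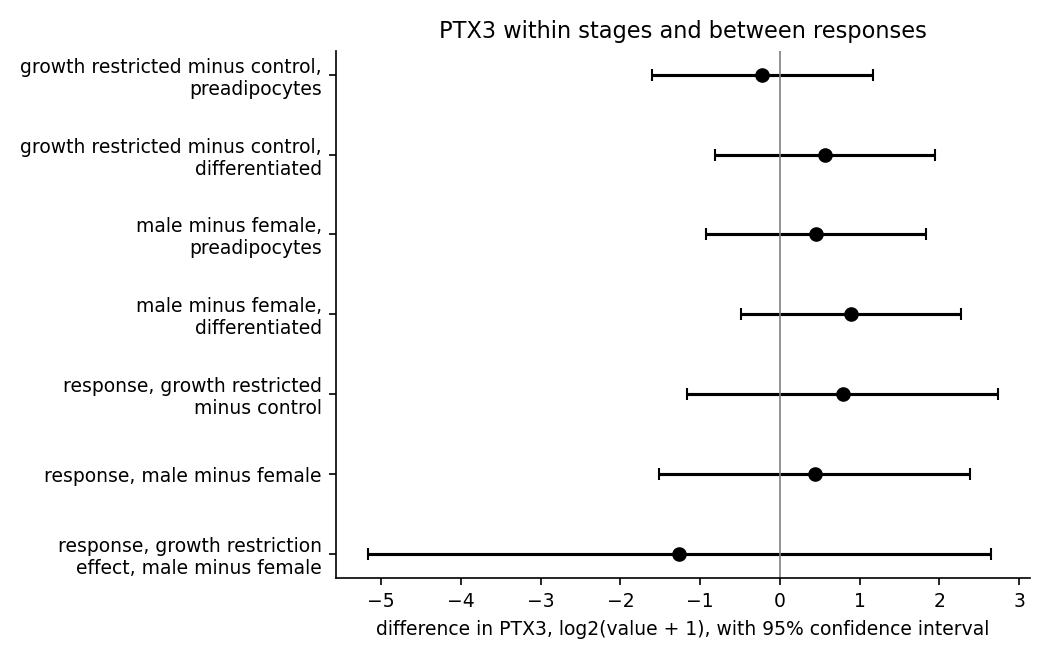
Differences in PTX3 within each stage, and differences between the responses to differentiation, on the log2(value + 1) scale (horizontal axis), with 95% confidence intervals from limma on 32 libraries. All 7 intervals include 0, and the widest, for the effect of growth restriction on the response in males minus females, runs from -5.17 to 2.64.

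The rise of PTX3 with differentiation was next compared between kinds of fetus. It was larger by 0.78 on the log2 scale in growth-restricted than in control cells (SE 0.95, limma adjusted p = 0.988) and by 0.43 in males than in females (SE 0.95, limma adjusted p = 0.921). The effect of growth restriction on the rise differed between the sexes by -1.26 (SE 1.90, limma adjusted p = 1.00). None of the 12737 genes (0%) was called in these 3 comparisons by limma, and 132, 116 and 89 genes had an unadjusted p below 0.05. In exact permutation tests over 4900 regroupings, the rise differed by 0.15 between MFGR and MC (p = 0.884, adjusted over 4 comparisons 0.935) and by 1.42 between FFGR and FC (p = 0.456, adjusted 0.911). MC and FC differed by 1.07 (exact permutation p = 0.368, adjusted 0.911). MFGR and FFGR differed by -0.20 (exact permutation p = 0.935, adjusted 0.935). Without FFGR replicate 2 the difference between FFGR and FC was -0.00073. No difference in the response of PTX3 was detected.

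The other pentraxins were low in these cells. Of the 6 looked for, 5 were found by name and 2 reached the level needed for a test. NPTX1, a secreted neuronal pentraxin, rose with differentiation by 1.72 on the log2 scale (SE 0.53, limma adjusted p = 0.0130), from a median of 1.91 to 9.66 normalized reads, and its ranges overlapped. NPTX1 reached the level needed for a test through its differentiated libraries, so its rise was favored by that filter. NPTXR, the membrane-bound neuronal pentraxin receptor, fell by 1.28 (SE 0.41, limma adjusted p = 0.0164), from a median of 39.1 to 12.6. The C-reactive protein gene CRP reached at most 7.35 normalized reads in any library, NPTX2 at most 14.7 and PTX4 at most 0.858, and all 3 had a median of 0 in both stages. APCS, the serum amyloid P gene, was not analysed here.

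Of 11 genes whose products build the hyaluronan matrix with PTX3, 9 were found and 6 tested. Of these 2 (33.3%) rose and 0 fell, against 12.4% and 14.8% of all genes tested, with a median change of 0.77 on the log2 scale against 0.035. HAPLN1, a link protein of hyaluronan and proteoglycans, rose by 1.72 (SE 0.39, limma adjusted p = 0.0011), from a median of 0.995 to 5.77 normalized reads. HAS3, a hyaluronan synthase, rose by 1.08 (SE 0.37, limma adjusted p = 0.0241), from 2.95 to 7.0. Their highest preadipocyte values were 5.61 and 10.1, so both reached the level needed for a test (10 in 4 or more libraries) through differentiated libraries. The count of rises was thus partly set by this filter, and nothing is read from it. TNFAIP6, which codes for TSG-6, had a median of 123.7 normalized reads in preadipocytes and 185.3 in differentiated cells, and its change of 0.76 (SE 0.38) did not pass the test (limma adjusted p = 0.126). The synthase HAS2 changed by 0.78 (SE 0.62, limma adjusted p = 0.373). Versican, the large proteoglycan coded by VCAN, changed by -0.02 (SE 0.63, limma adjusted p = 0.985) at medians of 31846 and 30480 normalized reads. Genes of the heavy chains (ITIH1, ITIH2 and ITIH3) and of the light chain (AMBP) of inter-alpha-inhibitor had medians of 0 in preadipocytes and at most 1.32 after differentiation.

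Known soluble and membrane ligands of PTX3 were few. Of 9 complement and lectin genes, 4 were found and 0 were tested. The subunits C1QA, C1QB and C1QC of the complement component C1q had medians of at most 0.431 normalized reads, with highest values of 53.7, 34.8 and 2.32 in preadipocytes. Of 6 growth factor and receptor genes, 3 were tested. FCGR3A, an Fc gamma receptor, fell by 2.61 on the log2 scale (SE 0.45, limma adjusted p = 4.52e-05), from a median of 15.6 to 0.954 normalized reads. FGF2, which PTX3 binds, was at a median of 221.3 in preadipocytes and 133.6 after differentiation, a change of -0.54 (SE 0.45) that did not pass the test (limma adjusted p = 0.397). LY96, the Toll-like receptor 4 partner, changed by -0.32 (SE 0.35, limma adjusted p = 0.526).

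Of 12 genes of the inflammatory signalling that is known to induce PTX3, 11 were found and 9 tested. Of these 2 (22.2%) were higher and 2 (22.2%) lower, against 12.4% and 14.8% of all genes tested, and the median change was -0.39 on the log2 scale. The cytokine gene IL1A fell by 2.63 (SE 0.74, limma adjusted p = 0.0065) and the lipopolysaccharide receptor TLR4 by 0.90 (SE 0.19, limma adjusted p = 0.0004). IL1B and TNF had medians of 0 in both stages and reached at most 26.6 and 10.8 normalized reads. The members that rose were NFKBIA, the inhibitor that holds NF-kappaB in the cytoplasm (1.52, SE 0.36, limma adjusted p = 0.0017), and the AP-1 subunit JUN (1.00, SE 0.25, limma adjusted p = 0.0025). RELA and MYD88 changed by -0.44 and -0.39, below the 1.5-fold asked for, and FOS by -0.06.

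Other NF-kappaB target genes, which as a group are induced by the same cytokines, fell or did not pass the test. All 12 were found and 11 tested, of which 0 rose and 3 (27.3%) fell, with a median change of -1.47 on the log2 scale. The chemokine CCL2 fell by 2.97 (SE 0.43, limma adjusted p = 5.23e-06), from a median of 1993 to 255.1 normalized reads. IL6 fell by 2.78 (SE 1.00, limma adjusted p = 0.0320), from a median of 10.8 to 1.00, and CXCL1 by 2.07 (SE 0.75, limma adjusted p = 0.0332). CXCL8, CCL20 and PTGS2 had changes of -1.52, -1.47 and -0.53 with adjusted p-values of 0.270, 0.270 and 0.612 by limma. TNFAIP3, a feedback inhibitor of this pathway, changed by 1.39 (SE 0.60, limma adjusted p = 0.0743). Over these 6 lists without PTX3, 31 of 56 genes were tested, 5 (16.1%) were called higher and 7 (22.6%) lower, against 12.4% and 14.8% of all genes tested. Among the higher, NPTX1, HAPLN1 and HAS3 were tested only because of their differentiated libraries. Among the lower, FCGR3A, IL1A, IL6 and CXCL1 were tested only because of their preadipocyte libraries. Without the 9 libraries of low span slope the counts were 3 higher and 12 lower. None of the 31 was called by limma for growth restriction, sex or a difference in response, and VCAM1 was the sole gene of the 31 with an unadjusted p below 0.05 (growth restriction and sex in preadipocytes, 0.0283 and 0.0149).

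**Figure D4:**
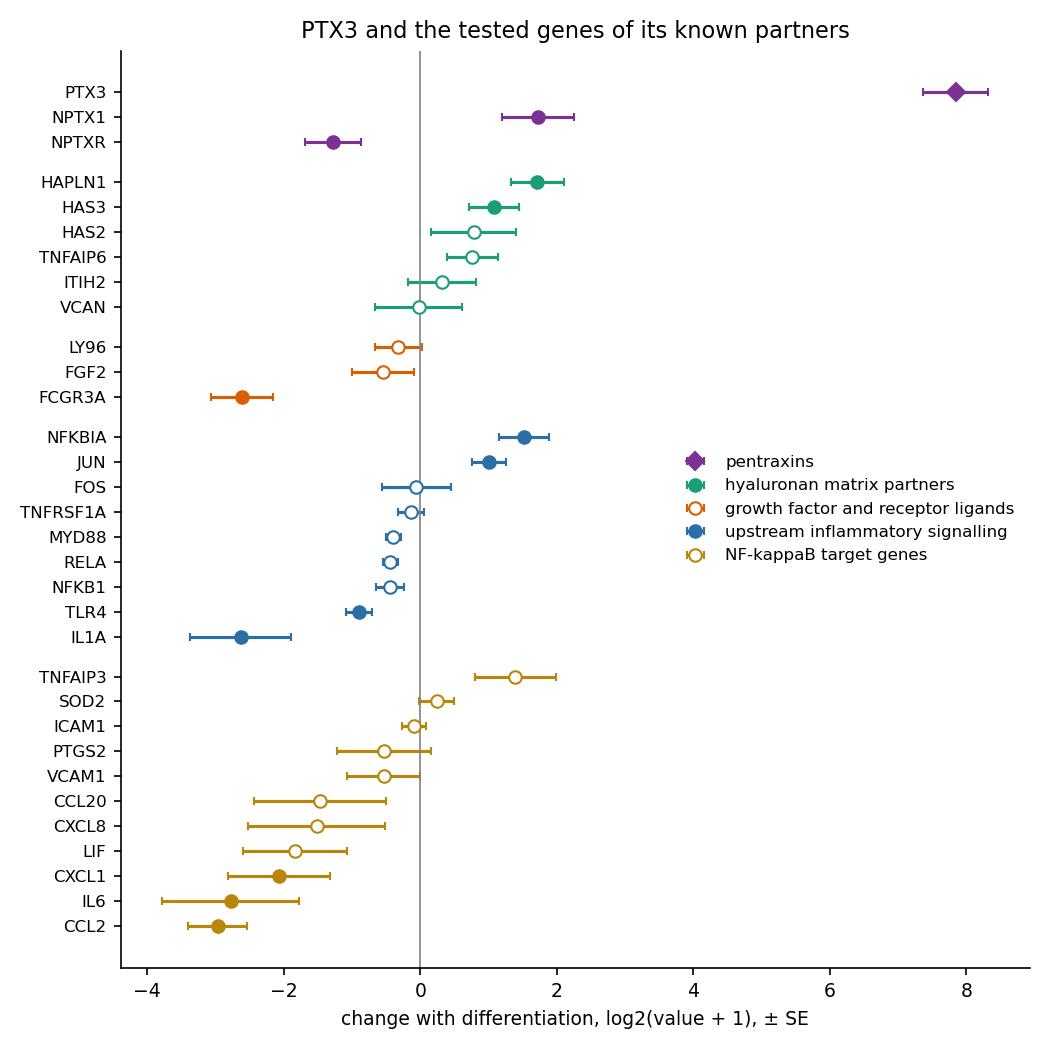
Change with differentiation on the log2(value + 1) scale (horizontal axis, ± SE over 32 libraries) of PTX3 (diamond, not tested) and of the 31 tested genes of its family, partners and inducers, colored by list. Filled points passed the test and open points did not. PTX3 lies at 7.85, and the 31 other genes lie between -2.97 and 1.72.

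At both ends of the preadipocyte range, PTX3 and several NF-kappaB targets were high or low in the same library. These libraries were picked after their values were seen. FFGR replicate 1, with the highest PTX3, had the highest level of 10 of the 12 NF-kappaB target genes among the 16 preadipocyte libraries. They included IL6 at 3550 normalized reads, CXCL8 at 4541, CCL20 at 4610 and PTGS2 at 10338. FFGR replicate 2, with the lowest PTX3 and a low span slope, was the lowest in CCL2 at 633.4 and PTGS2 at 27.8 and was listed at 0 for IL6, CXCL1, CCL20 and LIF, as were 1 or 2 other libraries for each. Its VCAM1 and SOD2 of 172.6 and 1104 were above the medians of 133.2 and 914.5, and its sum over the 12 genes, 2561, was not the lowest. Among the other libraries, MC replicate 4, with PTX3 at 396.4, had a sum of 10441. By contrast, FC replicate 1 and MFGR replicate 3 had IL6 at 740.9 and 347.2 with PTX3 at 139.7 and 118.6, and MFGR replicate 1 had IL6 at 2.8 with PTX3 at 398.9. Over the 16 preadipocyte libraries Pearson's r of PTX3 with IL6 was 0.32 (permutation p = 0.227), whereas Spearman's rho was 0.03 (permutation p = 0.924). Without the 2 libraries farthest from the median IL6, r was 0.083.

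In differentiated cells a library with high NF-kappaB targets did not stand out in PTX3. MCD replicate 2 had the highest level of 8 of the 12 targets among the 16 differentiated libraries, and its PTX3 of 41523 was the fifth highest. PTX3 and IL6 had r = -0.11 (permutation p = 0.671) and rho = -0.02 (permutation p = 0.959) at this stage.

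The label of mature adipocytes was checked against 8 adipocyte markers, and all 8 rose with differentiation by limma (12.4% of all genes tested did), with a median change of 4.57 on the log2 scale. This was the mean over the 4 kinds of fetus. Within a single kind 8 were called higher in MC, 2 in FC, 4 in MFGR and 5 in FFGR. Of the 8 markers, CIDEC was tested only because of its differentiated libraries, so its rise was favored by the filter. ADIPOQ, the adiponectin gene, rose by 6.82 (SE 0.73, limma adjusted p = 4.45e-08), from a median of 11.7 to 1197 normalized reads. The adipocyte markers were uneven among differentiated libraries, and PTX3 did not follow them closely. FCD replicate 4 had the lowest level of all 8 adipocyte markers among the differentiated libraries. Its ADIPOQ was at 8.59 and its FABP4 at 215.4 normalized reads. Its PTX3 of 10853 was in place 15 of the 16 differentiated libraries, counted from the highest. FCD also had the lowest mean of the 4 differentiated groups in both PTX3 (18328) and ADIPOQ (963). MFGRD replicate 3, with the highest PTX3, had ADIPOQ at 1012, whereas MCD replicate 3, with the highest ADIPOQ at 13421, had PTX3 at 27295. Over the 16 differentiated libraries r was 0.41 (permutation p = 0.119) and rho 0.21 (permutation p = 0.437), and r was 0.14 without the 2 libraries farthest from the median ADIPOQ. In preadipocytes r was -0.17 (permutation p = 0.516) and rho 0.08 (permutation p = 0.772).

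**Figure D5:**
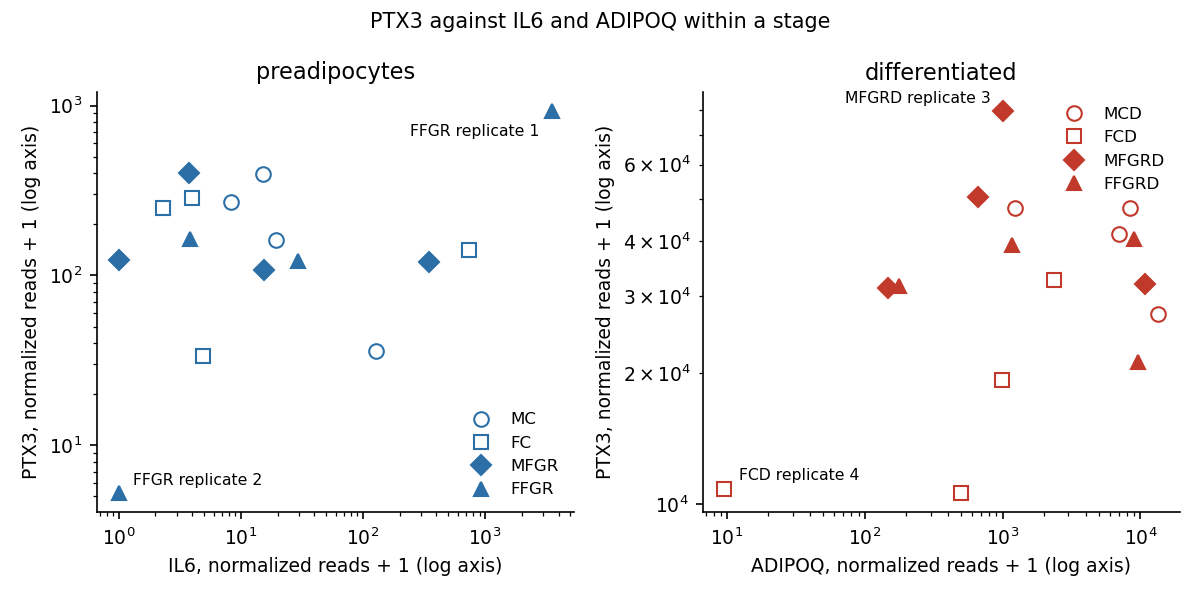
PTX3 against IL6 in the 16 preadipocyte libraries (left) and against ADIPOQ in the 16 differentiated libraries (right), both in normalized reads + 1 on log axes, with symbols for the groups. On the left FFGR replicate 1 and FFGR replicate 2 stand at opposite corners. On the right FCD replicate 4 had PTX3 at 10853, in place 15 of 16 from the highest, with ADIPOQ at 8.59.

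PTX3 was also set beside TNFAIP6, FKBP5, the library total and the span slope within each stage, which with IL6 and ADIPOQ makes 12 relations. None passed after adjustment, the lowest adjusted permutation p being 0.472 for r and 0.978 for rho. PTX3 and TNFAIP6, whose products act in the same matrix, had r = -0.12 in preadipocytes (permutation p = 0.661) and r = -0.05 in differentiated cells (permutation p = 0.855). With the library total r was -0.45 in preadipocytes (permutation p = 0.0871), which became 0.13 without the 2 farthest libraries. It was 0.31 in differentiated cells (permutation p = 0.236).

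PTX3 is also made by cells other than adipocytes. Of 7 preadipocyte and fibroblast markers 6 were tested. Of these 1 (16.7%) rose and 1 (16.7%) fell, against 12.4% and 14.8% of all genes tested. THY1 rose by 1.65 on the log2 scale (limma adjusted p = 0.0006), and POSTN fell by 3.90 (limma adjusted p = 1.13e-08). DLK1 had a median of 0 in both stages. The summed level of the list, mostly the collagen genes COL1A1 and COL3A1, had a median of 645570 normalized reads in preadipocytes. In differentiated libraries this median was 444000. Of 6 macrophage markers, PTPRC, CSF1R and AIF1 had medians of at most 1.04 normalized reads in both stages. Their highest preadipocyte values, 55.8, 36.3 and 37.6, were all in FFGR replicate 4. The highest preadipocyte value of CD163, 545.5, was also in that library, where PTX3 was at 121.1. CD14 and CD163 rose by 1.86 and 2.85 on the log2 scale (limma adjusted p = 0.0001 and 0.0031), and CD68 fell by 0.81 (limma adjusted p = 0.0424). Thus 2 (66.7%) of the 3 tested rose and 1 (33.3%) fell, against 12.4% and 14.8% of all genes tested. CD163 was tested only because of its differentiated libraries, so its rise was favored by the filter. The summed level of the 6 was 88.4 to 1038 in preadipocytes and 122 to 942 in differentiated libraries. Of 5 endothelial markers 4 were tested, 0 (0%) rose and 1 (25%), KDR, fell, against the same 12.4% and 14.8%. KDR was tested only because of its preadipocyte libraries, so its fall was favored by the filter. The summed level of the 5 was 10.1 to 92.7 in preadipocytes and 5.84 to 286 in differentiated libraries, and CDH5 was at a median of 0. Of 4 mesothelial markers 1 was tested, WT1, and it did not pass. The part of these cells in the PTX3 level was not tested.

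Genes with a pattern most like that of PTX3 were ranked by Pearson's r of log2(value + 1) over the 32 libraries among 10618 named genes. The first 8 were FKBP5 (0.938), ZBTB16 (0.937), SORBS2 (0.932), CPM (0.931), OXT (0.929), NR5A2 (0.917), GLRA3 (0.916) and FGFR3 (0.903). These values describe the difference between the stages, which all points of a stage share. Within the 16 differentiated libraries r with PTX3 was 0.41 for FKBP5, 0.12 for ZBTB16, -0.03 for CPM and 0.01 for OXT, while SORBS2 and GLRA3 kept 0.72 and 0.69. FKBP5, a co-chaperone and a well known glucocorticoid target, was at a median of 471.7 normalized reads before and 21390 after differentiation. In a list of 11 glucocorticoid-induced genes 9 were tested. Of these 7 (77.8%) rose and 1 (11.1%) fell, against 12.4% and 14.8% of all genes tested. The median change was 2.08 on the log2 scale, against 0.035 over all genes tested. ZBTB16, 1 of the 7, was tested only because of its differentiated libraries, so its rise was favored by the filter.

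Ranked within the 16 differentiated libraries alone, a different set came first. It was SLC3A1, a subunit of an amino acid transporter (r = 0.830), MTPAP, a mitochondrial poly(A) polymerase (0.809), PGM5 (0.791), HMGB1 (0.753) and EFCAB1 (0.744). In preadipocytes the r of these genes with PTX3 ran from -0.51 for PGM5 to 0.50 for MTPAP. With 10618 genes ranked over 16 libraries these are descriptions without a test.

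PTX3 lies on chromosome 1 at 250843217 to 250848677 of Oar_rambouillet_v1.0, a span of 5461 bp, inside the span of another gene, VEPH1 (250762191 to 251025724, 6 transcripts). The table gives neither strand nor exons, so the place of PTX3 relative to the exons of VEPH1 was not analysed here. VEPH1 was at a median of 2.33 normalized reads in preadipocytes and 12.5 after differentiation. It rose by 1.58 on the log2 scale (SE 0.40, limma adjusted p = 0.0029). Its highest preadipocyte value was 7.35, so it reached the level needed for a test through differentiated libraries, and its rise was favored by that filter. At its highest value of 43.8 VEPH1 was far below the lowest differentiated value of PTX3. The nearest gene before PTX3 was SHOX2, a homeobox transcription factor 709.6 kb away, which fell by 2.11 (SE 0.33, limma adjusted p = 1.30e-05). The nearest after it was CCNL1, a cyclin 294.8 kb away, which rose by 0.73 (SE 0.22, limma adjusted p = 0.0121), from a median of 671 to 1226 normalized reads.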

How the data were processed

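Total RNA was sequenced by the authors on an Illumina NextSeq500. Per the labels and the paper's methods, reads were checked with FastQC (0.11.9 in the submitters' processing notes), assigned to Ensembl transcripts of Oar_rambouillet_v1.0 with Salmon and normalized with DESeq2. The signal values deposited by the authors are these normalized reads per transcript and library, not whole counts. Their columns of group means, fold changes, p-values and adjusted p-values were not used, and 0 columns belonged to samples other than the 32 libraries.

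PTX3 and all gene lists were chosen with earlier results of these data known. Transcripts were summed per gene. The 12737 genes that reached 10 in 4 or more libraries were tested with limma 3.58.1 (R 4.3.3, empirical Bayes trend, log2(value + 1), cell means of the 8 groups), and a gene was called at a Benjamini-Hochberg adjusted p below 0.05 and a fold change above 1.5. Fold changes on this scale understate the change of low genes. Groups were compared for PTX3 by two-sided exact permutation tests, and relations were tested with 100000 permutations (scipy 1.17.1). Scripts were tested on simulated data. The genes named were PTX3, the other pentraxins, 8 fixed genes, the called members of each list (at most 5), the genes most correlated with PTX3 and its neighbours. Others were chosen after their values were seen.

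The labels do not say that the libraries of a group came from different fetuses, so p-values measure only the spread between these libraries. Libraries with the same replicate number deviated together from their group means in MC, FC and MFGR (correlations of 0.162 to 0.671), but FFGR replicate 2 had -0.398. Depth limits precision where a value rests on a few reads.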

Additional observations from a re-analysis of the deposited data

Results flagged for a closer look

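PTX3 in MFGR replicate 1 was set apart from its group. Its 398.9 normalized reads compare with 106.6 to 122.6 in the other 3 MFGR libraries, and its gap to the nearest of them was 0.945 of the range of the group, above Dixon's 95% critical value for 4 samples. This was 1 of the 8 groups examined, and chance sets apart about 1 in 20. MFGR replicate 1 was also one of the 9 libraries of low span slope (-0.21).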

How the results depend on the processing

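Of 165 results recomputed under a single alternative (pseudocounts of 0.1 and 10, no filter, quantile normalization, transcripts in place of genes, fits of the groups compared, library weights, the replicate block, relations of group-centred values or without the 2 farthest libraries), 153 kept direction and side of the threshold, 10 changed sign and 2 counts moved by over 1.5 times, and the cause was not tested. No PTX3 difference passed after adjustment under any of them or under those below. Without the 9 libraries of low span slope, an alternative chosen after seeing the data, 9 of 23 results changed sign and 2 counts moved, and the PTX3 differences were 0.58 (growth restriction) and -0.50 (sex) in preadipocytes, -0.026 (response, growth restriction), 1.87 (response, sex by growth restriction), -0.44 (MFGR minus MC), 1.61 (FFGR minus FC), -1.53 (MFGR minus FFGR), and for responses -0.96 (FFGR minus FC) and 2.28 (MFGR minus FFGR, where -0.20 was found with all libraries). Counts of partner genes were then 3 higher and 12 lower. Library weights gave 1.35 for the response by sex and growth restriction and 12 partner genes lower. A pseudocount of 10 gave 3 partner genes higher, -0.025 for MFGR minus MC and 0.12 for the response of MFGR minus FFGR. Quantile normalization gave r of PTX3 with the library total of -0.25 and with the span slope of 0.45 in differentiated cells. The latter was 0.13 group-centred and 0.10 without the 2 farthest libraries, where in preadipocytes FKBP5 gave -0.071, the total 0.13 and the span slope -0.34.

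Leaving out 1 library changed the sign in 22 of 480 recomputed results. The ranges were -0.76 to 0.49 and -0.26 to 0.99 for growth restriction and sex in preadipocytes, 0.43 to 0.73 and 0.75 to 1.05 for the same in differentiated cells, 0.08 to 1.32 for the response with growth restriction, -0.10 to 1.14 with sex and -2.34 to 0.15 for sex by growth restriction. For pairs they were -0.70 to 0.45 (MFGR minus MC), -1.52 to 0.97 (FFGR minus FC), -0.12 to 0.33 (MFGRD minus MCD), 0.76 to 1.30 (FFGRD minus FCD), -0.45 to 0.93 (MC minus FC), 1.08 to 1.62 (MCD minus FCD, exact p = 0.0286 without FCD replicate 3, before adjustment), -0.74 to 1.75 (MFGR minus FFGR) and 0.20 to 0.65 (MFGRD minus FFGRD). For responses they were -0.29 to 0.86 (MFGR minus MC), -0.00073 to 2.49 (FFGR minus FC), 0.36 to 1.74 (MC minus FC) and -1.27 to 1.22 (MFGR minus FFGR). FFGR replicates 1 and 2 set most preadipocyte extremes.

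For the change with differentiation and the responses, the replicate block paired each preadipocyte library with the differentiated library of its kind and number. The labels do not give this pairing. With it, 1859 genes were called higher and 2171 lower after differentiation, and 6 and 8 of the partner genes. Within a stage the replicate number alone was the block. These blocks changed no other call, and all 4 pairs correlated above 0.1 in MC, FC and MFGR but 3 of 4 in FFGR. The search for promoter motifs was not run, since no promoter sequence was used here.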
